A study of Homo sapiens with 8 samples.

Results

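The 34 genes described here encode the transporters and enzymes that take glucose to lactate, the regulators that set the pace of that route, the kinases and the subunit that control pyruvate dehydrogenase, phosphoglucomutase 1 and the enzymes of the pentose phosphate pathway after its first step. They were chosen by gene symbol from their place in the pathways, with earlier results of these data known, and all 34 were found among the 61228 rows of the count table. All 34 also passed the filter on low counts, which left 15568 genes to test.

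Messenger RNA was sequenced from MDA-MB-231, an established human breast cancer line, in 4 groups of 2 libraries. The knockout gels held cells nucleofected with Cas9 and guides against ETV1, ETV4 and ETV5 and embedded in collagen I, and the control gels held cells nucleofected with Cas9 and control guides in collagen I. The knockout monolayers had the same knockout label on plastic, and the control monolayers grew on plastic with a label that names control guides and leaves Cas9 unmentioned. All groups grew in the same serum-containing medium. Per the labels, collagenase I was used to free the cells of the gels, which were frozen as pellets, whereas monolayers went straight to extraction, so culture form and harvest cannot be told apart. The sources used here give neither the collagen concentration of each gel nor the clonality of the knockout, nor whether the replicates were grown apart. P-values therefore measure the spread between these libraries, which may be technical.

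Library totals ran from 15824504 to 23896899 counts. VIM, CD44, AXL, MSN and CAV1, markers of this mesenchymal line, were abundant, while ESR1 and PGR had at most 2 counts in any library. Of the other markers listed as low for this line, CDH1 had 1 to 7 counts a library. ERBB2 and EPCAM went the other way, with 1044 to 1660 counts (56.4 to 69.4 CPM, counts scaled for depth) and 214 to 433 counts (12.9 to 23.0 CPM). Of the 3 targeted genes, the ETS-family transcription factors of the PEA3 group, ETV1 had a log2 fold change of -0.66 in gels and -0.50 in monolayers, and ETV4 one of -0.57 in gels and -0.45 in monolayers. ETV5 stood at 0.02 in gels and 0.03 in monolayers and did not pass the test in either. Transcript levels need not fall when a coding sequence is cut, so these values check the labels only in part.

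Glycolysis splits glucose into pyruvate in the cytosol, and lactate dehydrogenase then regenerates the NAD+ it consumes. Pyruvate dehydrogenase kinases hold back the use of pyruvate by pyruvate dehydrogenase, and the pentose phosphate pathway branches off at glucose 6-phosphate to make NADPH and ribose phosphates. Cancer cells are known for running glycolysis to lactate even with oxygen present. Many genes of the glycolytic route are known targets of hypoxia-inducible factors, which bind a core of the letters ACGTG or GCGTG.

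Per kilobase of transcript, the 34 genes spanned a wide range of levels over the 8 libraries. GAPDH stood highest at a mean of 2521 RPKM (read count scaled for depth and transcript length), followed by PKM at 1380 RPKM, ENO1 at 1331 RPKM and LDHA at 1160 RPKM. The lowest were PFKFB2 at 4.61 RPKM, PDK3 at 6.48 RPKM, ENO3 at 6.74 RPKM and SLC2A3 at 7.30 RPKM. Among isoenzymes, SLC2A1 exceeded SLC2A3, PFKP exceeded PFKL and PFKM, and HK1 exceeded HK2 on this scale. The level of the aldolase ALDOA, 15.3 RPKM, is uncertain: 42.3% of its exonic bases are shared with AC093512.2, an annotated protein-coding gene on the same strand, and how reads that fall in both were counted is not stated. AC093512.2 itself held 62 to 115 counts a library, against 366 to 576 for ALDOA. ENO3, with 128 to 262 counts a library, shares 2.59% of its exonic bases with PFN1 on the opposite strand. PFN1 held 20863 to 32263 counts, and the strand setting of the counting is not stated, so the level of ENO3 is uncertain as well.

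The first comparison asked what the knockout did in collagen gels. In knockout gels, 18 of the 34 genes were lower than in control gels and 0 were higher, and the fallen genes covered nearly the whole route between glucose and lactate. Among all genes, 12.4% of those tested were lower, 11.5% were higher and 23.9% were called in either direction. The median log2 fold change of the 34 genes was -0.26, against -0.0011 for all tested genes. At an unadjusted p under 0.05, 19 of the 34 genes were lower and 2 higher, against 2729 lower and 2720 higher of the 15568 tested genes. DESeq2 called 18 of the 34 lower and 0 higher, against 1224 lower and 1255 higher among all tested genes. In bulk RNA, fewer cells with a transcript and less of it per cell cannot be told apart.

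**Figure D1:**
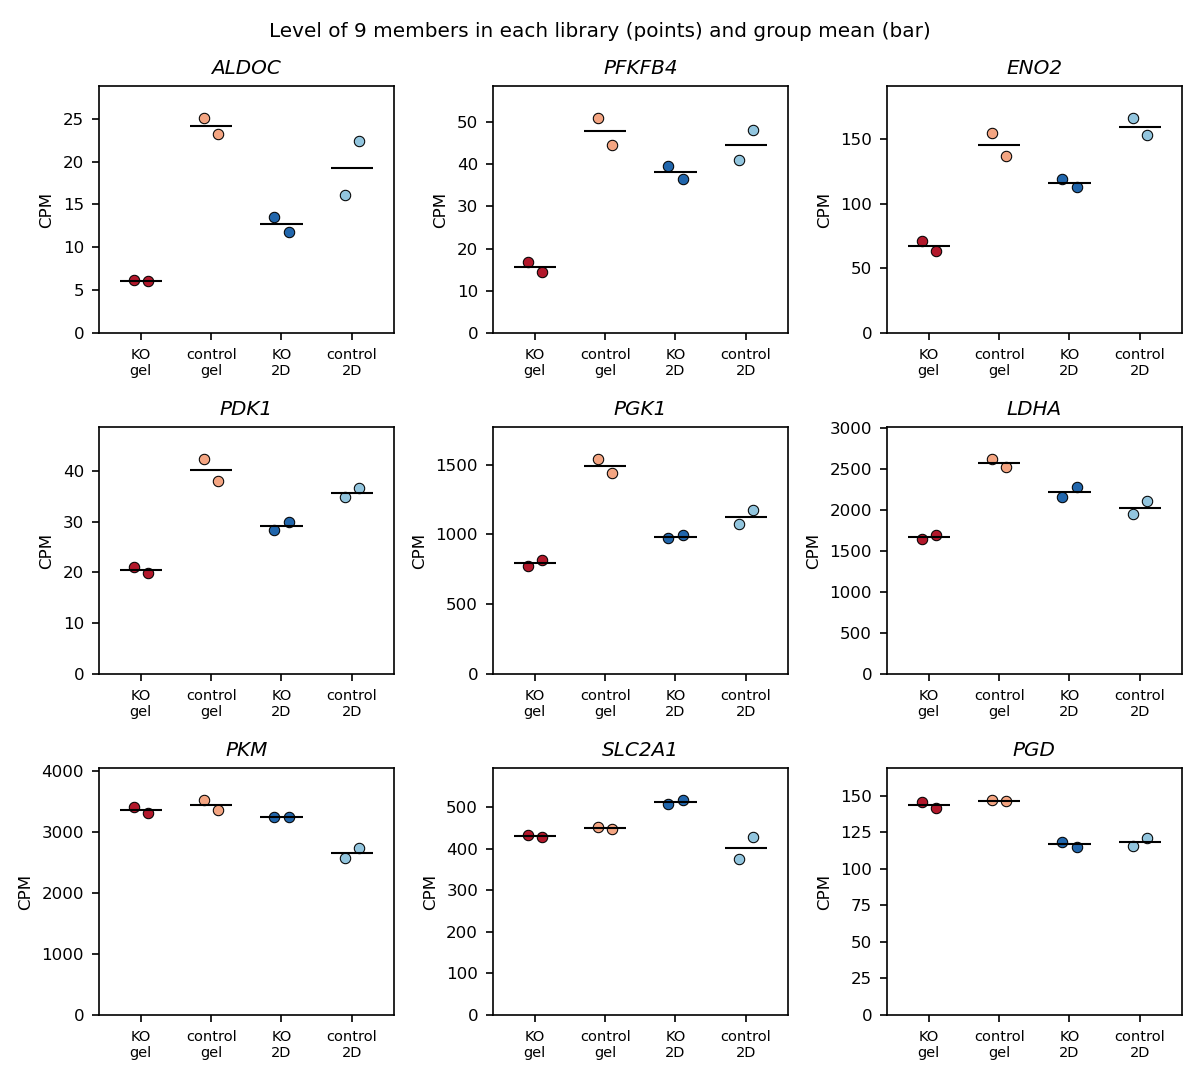
CPM (linear axis, starting at 0) of 9 genes in each library, with the 4 groups along the horizontal axis and a bar at each group mean. ALDOC, PFKFB4, ENO2, PDK1, PGK1 and LDHA have both knockout gel libraries below all other libraries, whereas PKM, SLC2A1 and PGD do not.

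The largest fall was in ALDOC, an aldolase isoform best known from brain (GRCh38 chromosome 17, 28573115 to 28577264, reverse strand). ALDOC had 6.19 and 6.06 CPM (the count scaled for library depth) in knockout gels, against 25.1 and 23.2 CPM in control gels. Its log2 fold change was -1.98 ± 0.15 (SE), a level 3.94-fold lower (adjusted p = 4.05e-11). The groups did not overlap, and both knockout gels also stood below the 13.5 and 11.8 CPM of knockout monolayers and the 16.1 and 22.4 CPM of control monolayers.

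PFKFB4, a bifunctional enzyme that makes and removes fructose 2,6-bisphosphate, the activator of phosphofructokinase, was next (chromosome 3, 48517684 to 48562015, reverse strand). It had 16.9 and 14.5 CPM in knockout gels, against 50.9 and 44.7 CPM in control gels. The log2 fold change was -1.61 ± 0.097 (SE), or 3.05-fold lower (adjusted p = 1.34e-13). Its relative PFKFB3, which mainly makes the activator, had 87.6 and 82.5 CPM in knockout gels and 116 and 114 CPM in control gels, a log2 fold change of -0.43. The third member, PFKFB2, lay at 26.6 and 24.8 CPM in knockout gels and 23.0 and 22.4 CPM in control gels, and its log2 value of 0.18 did not pass the test.

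ENO2, the neuron-type enolase, had 71.4 and 63.4 CPM in knockout gels, against 154 and 136 CPM in control gels (log2 fold change -1.11 ± 0.066 SE, adjusted p = 2.38e-12). PDK1, a kinase that inactivates pyruvate dehydrogenase, had 21.0 and 19.9 CPM in knockout gels, against 42.3 and 38.0 CPM in control gels (log2 -0.97 ± 0.082 SE, adjusted p = 1.54e-11). PGK1, the first ATP-forming step of glycolysis (chromosome X, 77910739 to 78129296, forward strand), had 776 and 817 CPM in knockout gels, against 1538 and 1437 CPM in control gels. Its log2 fold change of -0.90 ± 0.0485 (SE) had the smallest adjusted p of the 34 genes, 2.07e-16. In all 3 genes both knockout gels lay below both control gels, with no overlap. Such a gap was common: knockout and control gel values did not overlap in 29 of the 34 genes. The share over all tested genes is not given here, in gels or in monolayers.

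**Figure D2:**
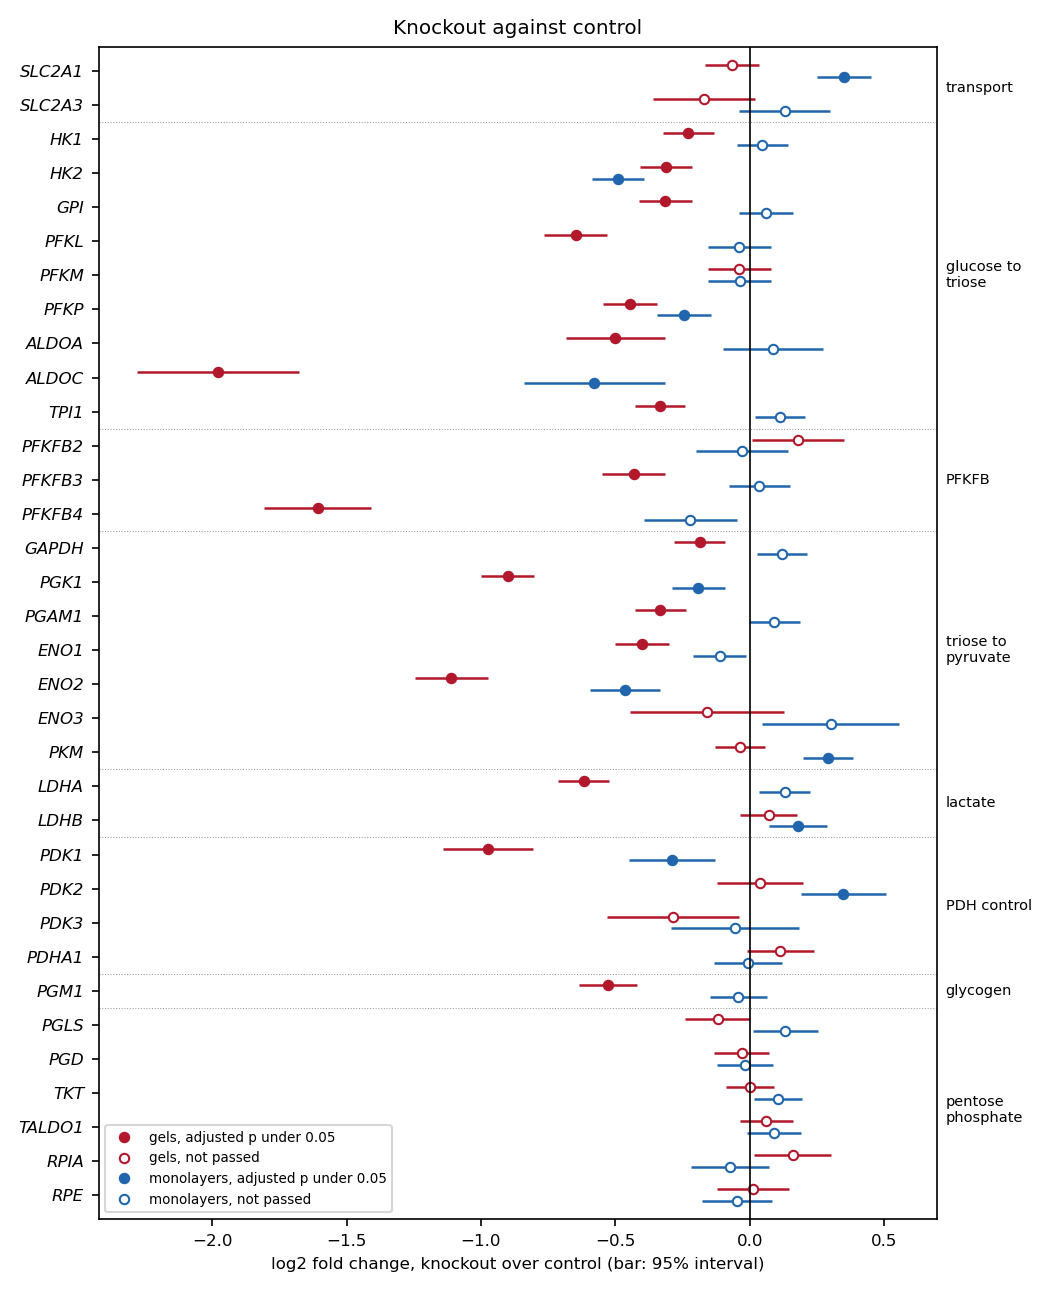
Log2 fold change of knockout over control cells for each of the 34 genes, in gels (red) and in monolayers (blue), with 95% intervals and filled points where the adjusted p is under 0.05. The gel points run as low as -1.98 for ALDOC, whereas the monolayer points lie between -0.58 and 0.35.

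The steps between glucose and triose phosphate were lower in 8 of 9 genes, with a median log2 fold change of -0.33. The liver-type phosphofructokinase PFKL, part of the committed step, had 105 and 94.7 CPM in knockout gels and 160 and 153 CPM in control gels (log2 -0.65). The platelet-type PFKP fell by 0.45 on the log2 scale, while the muscle-type PFKM had 78.7 and 76.7 CPM in knockout gels, against 80.1 and 79.6 CPM in control gels. The committed step was thus lower in both of its more abundant isoforms. The hexokinases HK1 and HK2, which trap glucose in the cell, fell by 0.23 and 0.31 log2 units, the isomerase GPI by 0.32, triose phosphate isomerase TPI1 by 0.33 and ALDOA, with the counting limit given above, by 0.50. PGM1, which links glucose 6-phosphate to glycogen, fell by 0.53.

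Between triose phosphate and pyruvate, 5 of 7 genes were lower. Besides PGK1 and ENO2, these were the mutase PGAM1 at -0.33, the main enolase ENO1 at -0.40 and GAPDH at -0.19 on the log2 scale. GAPDH had 3118 and 3184 CPM in knockout gels, against 3643 and 3533 CPM in control gels, and its call was the weakest of the 18: without control gel replicate 1 its adjusted p was 0.0806, in a range of 0.000101 to 0.0806 over all alternatives. PKM, whose M1 and M2 forms gene counts cannot separate, had 3407 and 3303 CPM in knockout gels and 3520 and 3359 CPM in control gels. Its groups overlapped, and its log2 value of -0.04 (95% interval -0.13 to 0.06) did not pass. The muscle enolase ENO3, with 8.27 and 6.80 CPM in knockout gels and 8.02 and 8.83 CPM in control gels, overlapped as well.

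LDHA, the lactate dehydrogenase subunit associated with lactate production, had 1647 and 1697 CPM in knockout gels, against 2614 and 2517 CPM in control gels. That was a log2 fold change of -0.62 ± 0.047 (SE, adjusted p = 1.77e-12). LDHB, the other subunit, had 119 and 125 CPM in knockout gels and 115 and 118 CPM in control gels and did not pass (log2 0.07). LDHB shares 33.4% of its exonic bases with AC010197.2 on the same strand, which had 0 to 3 counts a library. Summed over the 18 genes that run the steps between glucose and lactate, the route had 13753 and 13795 CPM in knockout gels, against 17716 and 16918 CPM in control gels, a ratio of 0.795.

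Neither glucose transporter passed the test in gels: SLC2A1 had a log2 value of -0.07 (95% interval -0.17 to 0.03) and SLC2A3 one of -0.17 (-0.36 to 0.02). PDK2, PDK3 and PDHA1, a further pair of the kinases and the alpha subunit of pyruvate dehydrogenase itself, had log2 values of 0.04, -0.29 and 0.11 and did not pass either, although PDK3 passed without knockout gel replicate 2 (adjusted p = 0.0486, in a range of 0.0486 to 0.515 over all alternatives). None of the 6 pentose phosphate genes was called in gels by edgeR or by DESeq2. An unadjusted p under 0.05 was found for 1 of the 6, against 5449 of the 15568 tested genes. Transketolase TKT, which shuttles sugar carbons back to glycolysis, had 508 and 492 CPM in knockout gels and 504 and 496 CPM in control gels. The log2 values of the other 5 ran from -0.12 for the lactonase PGLS to 0.16 for the isomerase RPIA, with the dehydrogenase PGD, transaldolase TALDO1 and the epimerase RPE in between, and the 6 genes summed to 985 and 961 CPM in knockout gels, against 978 and 963 CPM in control gels. For TKT the 95% interval, -0.09 to 0.09 on the log2 scale, excludes a fall of the size seen in LDHA.

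The summed level of 7 leukocyte markers was 3.12 and 2.98 CPM in knockout gels, against 6.96 and 8.39 CPM in control gels, with LYZ (24 to 122 counts a library) and CD14 (13 to 40) the most abundant and CD3E, ITGAM and CD79A at no more than 2 counts in every library. Endothelial markers summed to 7.18 and 8.66 CPM in knockout gels and 11.2 and 11.2 CPM in control gels, with PECAM1 (62 to 186 counts) and KDR (40 to 116) the most abundant and CLDN5 at 0 in every library. The 7 fibroblast markers summed to 14.4 and 12.2 CPM in knockout gels, 13.5 and 13.8 CPM in control gels, 25.2 and 24.2 CPM in knockout monolayers and 19.0 and 19.0 CPM in control monolayers. COL1A1 carried most of that sum, at 9.04 to 18.4 CPM, and DCN had at most 1 count. The part of these values in the results was not tested. The 13 mitochondrially encoded genes took 3.32 and 2.29% of counts in knockout gels and 2.71 and 3.66% in control gels. In monolayers they took 3.94 and 3.81% in knockout cells and 3.26 and 3.39% in control cells. Gel replicates thus stood further apart than monolayer replicates. None of these 13 genes was called in any comparison by edgeR or DESeq2, or had an unadjusted p under 0.05 in edgeR.

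The sequence upstream of the genes was searched for ACGTG and GCGTG, the letters of the hypoxia-inducible factor core. RefSeq windows (GRCh38.p14) were matched for 32 of the 34 genes, with SLC2A3 and PFKFB2 unmatched, and the 250 bases upstream of each RefSeq start were read. For the genes printed, that start lies inside the longer GENCODE v29 span of the gene. ALDOC, PFKFB4 and PGK1 are printed as genes with a large fall in gels, and TKT as one with a log2 value of 0.00. Each runs 5′ to 3′ towards the start of the gene. Capitals mark ACGTG or GCGTG on either strand, so that CACGT and CACGC are the same letters on the other strand.
ALDOC, chr17:28576896-28577145, reverse strand: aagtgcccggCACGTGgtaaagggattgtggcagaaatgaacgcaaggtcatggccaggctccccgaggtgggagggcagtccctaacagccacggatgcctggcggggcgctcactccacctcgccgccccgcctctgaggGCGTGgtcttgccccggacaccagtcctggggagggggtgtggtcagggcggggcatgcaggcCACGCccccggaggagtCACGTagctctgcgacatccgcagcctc
PFKFB4, chr3:48556804-48557053, reverse strand: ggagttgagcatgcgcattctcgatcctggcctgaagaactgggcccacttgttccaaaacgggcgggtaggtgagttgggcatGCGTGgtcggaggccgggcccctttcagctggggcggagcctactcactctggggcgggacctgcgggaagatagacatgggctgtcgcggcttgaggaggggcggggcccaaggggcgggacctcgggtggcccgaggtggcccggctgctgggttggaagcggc
PGK1, chrX:78103998-78104247, forward strand: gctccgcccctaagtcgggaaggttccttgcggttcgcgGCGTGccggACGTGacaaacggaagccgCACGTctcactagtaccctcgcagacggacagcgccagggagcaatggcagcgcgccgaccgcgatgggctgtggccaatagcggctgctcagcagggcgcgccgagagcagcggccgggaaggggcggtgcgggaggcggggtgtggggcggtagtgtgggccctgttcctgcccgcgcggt
TKT, chr3:53256023-53256272, reverse strand: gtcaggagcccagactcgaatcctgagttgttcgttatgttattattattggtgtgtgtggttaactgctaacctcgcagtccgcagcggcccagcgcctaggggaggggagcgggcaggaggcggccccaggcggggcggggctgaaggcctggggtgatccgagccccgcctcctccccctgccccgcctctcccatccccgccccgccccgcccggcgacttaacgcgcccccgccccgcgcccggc
The ALDOC window held 5 matches, of which a pair overlap in the palindrome CACGTG at its far end, PGK1 held 3, at positions -211, -202 and -183 from the start, PFKFB4 held 1 and TKT held 0.

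A match was common everywhere: 64.3% of the 11102 tested genes with a window had at least 1. It was present in 17 of the 18 genes lower in knockout gels, PGAM1 being the exception, and in 7 of the 14 matched genes that did not pass there. Among the latter, PGD and PDHA1 each held 3 matches in their only window, as many as PGK1. ENO2, with a large fall in gels, held 1. Genes with several annotated starts have more bases to match. Among genes with a single window, the counts were 8 of 9 for those lower in knockout gels and 4 of 11 for those not passed, against 58.4% of all such genes. Of the 6 pentose phosphate genes, 2 had a match. CCGGAAG, a sequence of the kind ETS factors bind, was found on either strand in 5 of the 32 genes (15.6%). The share was 10.2% among all genes with a window, tested or not. Its share among tested genes or among genes with a single window was not computed. Counted by window, it was in 6 of the 59 windows of these genes, against 8.52% of all windows. These are matches of letters, not sites shown to be bound.

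The second comparison asked what the knockout did on plastic. There 4 of the 34 genes were higher in knockout monolayers and 6 were lower, where 9.6% of tested genes were higher, 9.6% lower and 19.2% either. The median of the 34 was 0.01 on the log2 scale, the same as for all tested genes. HK2, PFKP, ALDOC, PGK1, ENO2 and PDK1 were lower, and all 6 were also lower in gels. SLC2A1, PKM, LDHB and PDK2 were higher, and none of these 4 passed in gels.

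HK2, the inducible hexokinase, had 175 and 172 CPM in knockout monolayers, against 237 and 251 CPM in control monolayers (log2 -0.49 ± 0.048 SE, adjusted p = 9.20e-10). ENO2 had 119 and 113 CPM in knockout monolayers, against 166 and 153 CPM in control monolayers (log2 -0.46). ALDOC had 13.5 and 11.8 CPM in knockout monolayers, against 16.1 and 22.4 CPM in control monolayers (log2 -0.58 ± 0.13 SE, adjusted p = 0.00168). The control monolayers of ALDOC were far apart, and its call was lost without control monolayer replicate 2 (adjusted p = 0.0593) or knockout monolayer replicate 2 (adjusted p = 0.0601). The range of its adjusted p over all alternatives was 2.79e-06 to 0.0601.

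PDK1 was lower by 0.29 log2 units, PFKP by 0.24 and PGK1 by 0.19. Without control monolayer replicate 2, PGK1 had an adjusted p of 0.1004 (range 0.000181 to 0.1004) and PDK1 one of 0.0653 (range 0.00381 to 0.0699, the top without knockout monolayer replicate 1). That library was the higher control for each of these genes.

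SLC2A1, the main glucose transporter of most cultured cells, had 508 and 517 CPM in knockout monolayers, against 375 and 429 CPM in control monolayers. The log2 fold change was 0.35 ± 0.050 (SE, adjusted p = 1.93e-06), and the groups did not overlap. PKM had 3239 and 3247 CPM in knockout monolayers, against 2568 and 2736 CPM in control monolayers (log2 0.29, adjusted p = 9.81e-06). PDK2 had 33.2 and 36.1 CPM in knockout monolayers, against 27.3 and 27.2 CPM in control monolayers (log2 0.35, adjusted p = 0.00125). LDHB was higher by 0.18 and lost the call without any of 3 libraries: control monolayer replicate 1 (adjusted p = 0.218), knockout monolayer replicate 1 (0.0945) or knockout monolayer replicate 2 (0.0629), in a range of 0.0106 to 0.218.

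LDHA stood at the threshold, with 2150 and 2274 CPM in knockout monolayers and 1943 and 2104 CPM in control monolayers (log2 0.13, adjusted p = 0.0507). It passed with scaling by totals alone (0.0481), with a mean of at least 5 CPM (0.0434) and without control monolayer replicate 2 (0.00506), in a range of 0.00506 to 0.510. PFKFB4, lower in gels, had 39.5 and 36.6 CPM in knockout monolayers and 41.1 and 48.2 CPM in control monolayers (log2 -0.22, adjusted p = 0.0667) and was not called. It passed as lower without the filter on low counts (0.0297) and with only the groups compared in the fit (0.0331). It also passed as lower without control monolayer replicate 1, without knockout gel replicate 1 (log2 -0.23) or without knockout gel replicate 2 (log2 -0.22). Over all alternatives its log2 value ran from -0.35, without control monolayer replicate 1, to -0.11. Without control monolayer replicate 2 the counts became 8 higher and 3 lower, and without control monolayer replicate 1 they became 3 higher and 8 lower, so the split in monolayers depends on both control libraries. None of the 6 pentose phosphate genes was called in monolayers by edgeR or DESeq2. An unadjusted p under 0.05 was found for 2 of the 6, against 4802 of the 15568 tested genes. TKT passed without control monolayer replicate 2 (log2 0.14, adjusted p = 0.0491). The 18 genes of the route to lactate summed to 14467 and 14603 CPM in knockout monolayers, against 13321 and 14455 CPM in control monolayers.

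The interaction tested whether the knockout effect in gels differed from that in monolayers. It was negative, meaning a larger fall or a smaller rise in gels, for 18 of the 34 genes and positive for 0, where 3.94% of tested genes were negative, 2.67% positive and 6.6% either. At an unadjusted p under 0.05, 23 of the 34 were negative and 2 positive, against 1694 negative and 1331 positive of the 15568 tested genes. DESeq2 called 18 of the 34 negative and 0 positive, against 364 negative and 314 positive among all tested genes. The median was -0.31, against -0.02 for all tested genes. ALDOC at -1.40, PFKFB4 at -1.39, LDHA at -0.75, PGK1 at -0.71, PDK1 at -0.68 and ENO2 at -0.65 were the furthest below 0. PKM at -0.33 and SLC2A1 at -0.42 were also negative; both were higher in knockout monolayers and had not passed in gels.

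HK2 had the opposite sign without passing, with a log2 fold change of -0.31 in gels, -0.49 in monolayers and an interaction of 0.18 (adjusted p = 0.117). It passed without control monolayer replicate 1 (adjusted p = 0.0399) or knockout gel replicate 1 (0.0409), in a range of 0.0399 to 0.375. PFKP, lower in both cultures, did not pass the interaction at -0.20 (adjusted p = 0.0779), but passed without control monolayer replicate 2 (0.00266) and with a mean of at least 5 CPM (0.0430), in a range of 0.00266 to 0.54. All 6 pentose phosphate genes were between -0.25 and 0.23 and none was called by edgeR or DESeq2. An unadjusted p under 0.05 was found for 2 of the 6, against 3025 of the 15568 tested genes. PGLS, at -0.25, passed without control monolayer replicate 2 (adjusted p = 0.0247) and with a mean of at least 5 CPM (0.0461). HK1, ALDOA and ENO1 lost the interaction call without a library: without control monolayer replicate 1 their adjusted p-values were 0.113, 0.0758 and 0.0946. Without control gel replicate 1, HK1 had 0.0852 and ENO1 0.121, and without knockout monolayer replicate 1 they had 0.0679 and 0.0799. Over all alternatives the adjusted p ranged from 0.000776 to 0.113 for HK1, 0.000747 to 0.0758 for ALDOA and 4.54e-05 to 0.121 for ENO1. The labels leave Cas9 unmentioned for control monolayers alone, and its part in the interaction was not tested.

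**Figure D3:**
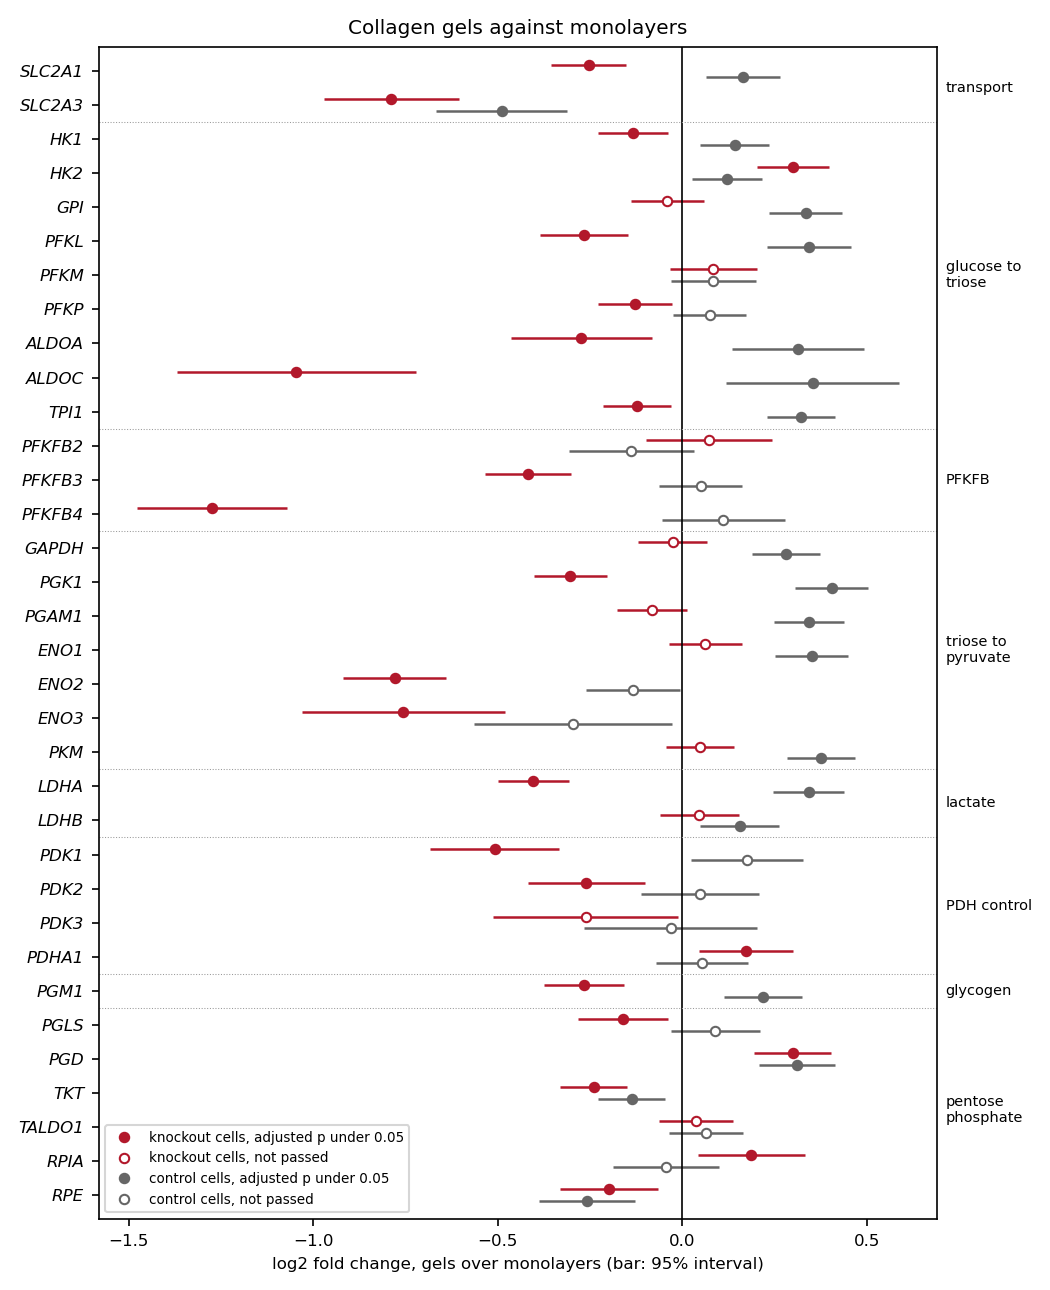
Log2 fold change of gels over monolayers for each of the 34 genes, in knockout cells (red) and in control cells (grey), with 95% intervals and filled points where the adjusted p is under 0.05. For 9 genes, SLC2A1, HK1, PFKL, ALDOA, ALDOC, TPI1, PGK1, LDHA and PGM1, filled points of the 2 genotypes lie on opposite sides of 0.

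The remaining comparisons set gels against monolayers within each genotype and use the same libraries as the ones above. In knockout cells, 20 of the 34 genes were lower in gels and 4 were higher, where 17.9% of tested genes were lower, 20.1% higher and 38% either. In control cells the balance was the reverse: 17 were higher in gels and 3 lower, where 16% of tested genes were higher, 10.7% lower and 26.7% either. The median log2 fold change was -0.18 in knockout cells and 0.13 in control cells, against all-gene medians of -0.01 in knockout cells and 0.01 in control cells. With libraries scaled by their totals alone, the counts in control cells were 11 higher and 6 lower, and the share of all called genes that were higher was 30.6%, against 59.8% with TMM and 43.4% with upper-quartile factors. In knockout cells that share was 37.1% by totals alone and 40.6% with upper-quartile factors, against 52.8% with TMM. DESeq2 called fewer of the 34 genes than edgeR. In knockout cells it called 16 lower and 2 higher in gels, against 1791 lower and 2333 higher among all tested genes. In control cells it called 12 higher and 3 lower, against 1478 higher and 953 lower.

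Of the 34 genes, 9 were called in opposite directions, lower in gels in knockout cells and higher in gels in control cells: SLC2A1, HK1, PFKL, ALDOA, ALDOC, TPI1, PGK1, LDHA and PGM1. How many of all tested genes were called in opposite directions was not counted, so no background share stands beside this number. PGK1 had a log2 difference of -0.30 between knockout gels and knockout monolayers and one of 0.41 between control gels and control monolayers. LDHA had -0.40 in knockout cells and 0.34 in control cells, and PFKL had -0.27 in knockout cells and 0.34 in control cells. PFKL, PGK1 and LDHA held both calls under every alternative. ALDOC had -1.05 in knockout cells (adjusted p = 7.84e-06) and 0.35 in control cells (adjusted p = 0.0225).

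The control-cell call of ALDOC was lost without control monolayer replicate 1 (log2 0.093, adjusted p = 0.659) or control gel replicate 1 (0.194), with DESeq2, and with scaling by totals or upper quartiles, in a range of 0.000315 to 0.659. In control cells the calls of SLC2A1, HK1, ALDOA and PGM1 were also lost without control monolayer replicate 1, at adjusted p-values of 0.534, 0.428, 0.320 and 0.178, the highest of their alternatives, and each of the 4 was also lost without at least 1 control gel library. In all, 10 of the 17 genes higher in control gels held the call under every alternative: GPI, PFKL, TPI1, GAPDH, PGK1, PGAM1, ENO1, PKM, LDHA and PGD. Without control monolayer replicate 1 the count was 10, and without control gel replicate 1 it was 11. The other calls lost under some alternative were HK2 and LDHB among the higher and TKT and RPE among the lower.

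In knockout cells the largest differences between gels and monolayers were in PFKFB4 at -1.27, ALDOC at -1.05, SLC2A3 at -0.79, ENO2 at -0.78, ENO3 at -0.76 and PDK1 at -0.51. The value of ENO3 carries the counting limit given above for its overlap with PFN1. SLC2A3, the high-affinity transporter best known from neurons, was lower in gels in both genotypes. It had 22.8 and 19.2 CPM in knockout gels and 37.0 and 35.6 CPM in knockout monolayers, and 22.2 and 25.1 CPM in control gels and 31.6 and 35.1 CPM in control monolayers. TKT and RPE were also lower in gels in both genotypes, but their calls were less firm. In control cells TKT lost the call without control gel replicate 1, control gel replicate 2 or control monolayer replicate 2 (adjusted p = 0.116, 0.174 and 0.136), and RPE without control monolayer replicate 2 (0.0532). Without knockout monolayer replicate 2 the count of lower genes in knockout cells was 13 and that of higher genes 2. Of the 20 lower genes, 13 held the call under every alternative, and HK1, PFKP, ALDOA, TPI1, PDK2, PGLS and RPE lost it without at least 1 knockout library. With all libraries kept, DESeq2 did not call PFKP, ALDOA, PGLS or RPE. Without the filter on low counts, HK1, PFKP, TPI1 and PGLS were not called.

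HK2 and PGD were higher in gels in both genotypes. PGD, the NADPH-forming dehydrogenase of the pentose phosphate pathway, had 146 and 142 CPM in knockout gels, against 118 and 115 CPM in knockout monolayers (log2 0.30, adjusted p = 1.83e-05). In control cells it had 147 and 146 CPM in gels, against 116 and 121 CPM in monolayers (log2 0.31, adjusted p = 1.64e-05). The knockout and control values lay side by side within each culture form, and the interaction was -0.01 (95% interval -0.16 to 0.13). HK2, by contrast, held its call in knockout cells (log2 0.30, adjusted p = 7.12e-06) but stood at an adjusted p of 0.0494 in control cells, where 13 of 16 alternatives left it above the threshold. PDHA1 and RPIA, higher in knockout gels than in knockout monolayers at 0.17 and 0.19, were not called by DESeq2. Without knockout gel replicate 2 or knockout monolayer replicate 2 they also lost the call, at adjusted p-values of 0.128 and 0.324 for PDHA1 and 0.188 and 0.411 for RPIA.

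The families of isoenzymes changed in make-up as well as in level. These shares are per kilobase and come from the same counts, so they restate the values above as proportions, and they were not tested. PFKFB4 made up 18.5% of the 3 PFKFB genes in knockout gels, against 34.7% in control gels, and 29.9% in knockout monolayers, against 33.7% in control monolayers. PFKFB3 accordingly held 72.5% in knockout gels and 60.3% in control gels. PDK1 made up 28.5% of the 3 pyruvate dehydrogenase kinases in knockout gels and 42.6% in control gels, and PDK2 made up 48.4% in knockout gels and 35.9% in control gels.

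LDHA made up 91.3 to 94.6% of the lactate dehydrogenase pair over the 8 libraries, with means of 91.4% in knockout gels and 94.5% in control gels. ENO2 made up 2.20% of the enolases in knockout gels and 3.53% in control gels. Hexokinase was the family whose make-up set the knockout monolayers apart, with HK1 at 70.3% there and 62.0% in control monolayers, while it was 63.7% in knockout gels and 62.3% in control gels. The order of the isoforms by level was the same in all 4 groups except among the pyruvate dehydrogenase kinases, where PDK2 led in both knockout groups and PDK1 in both control groups.

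**Figure D4:**
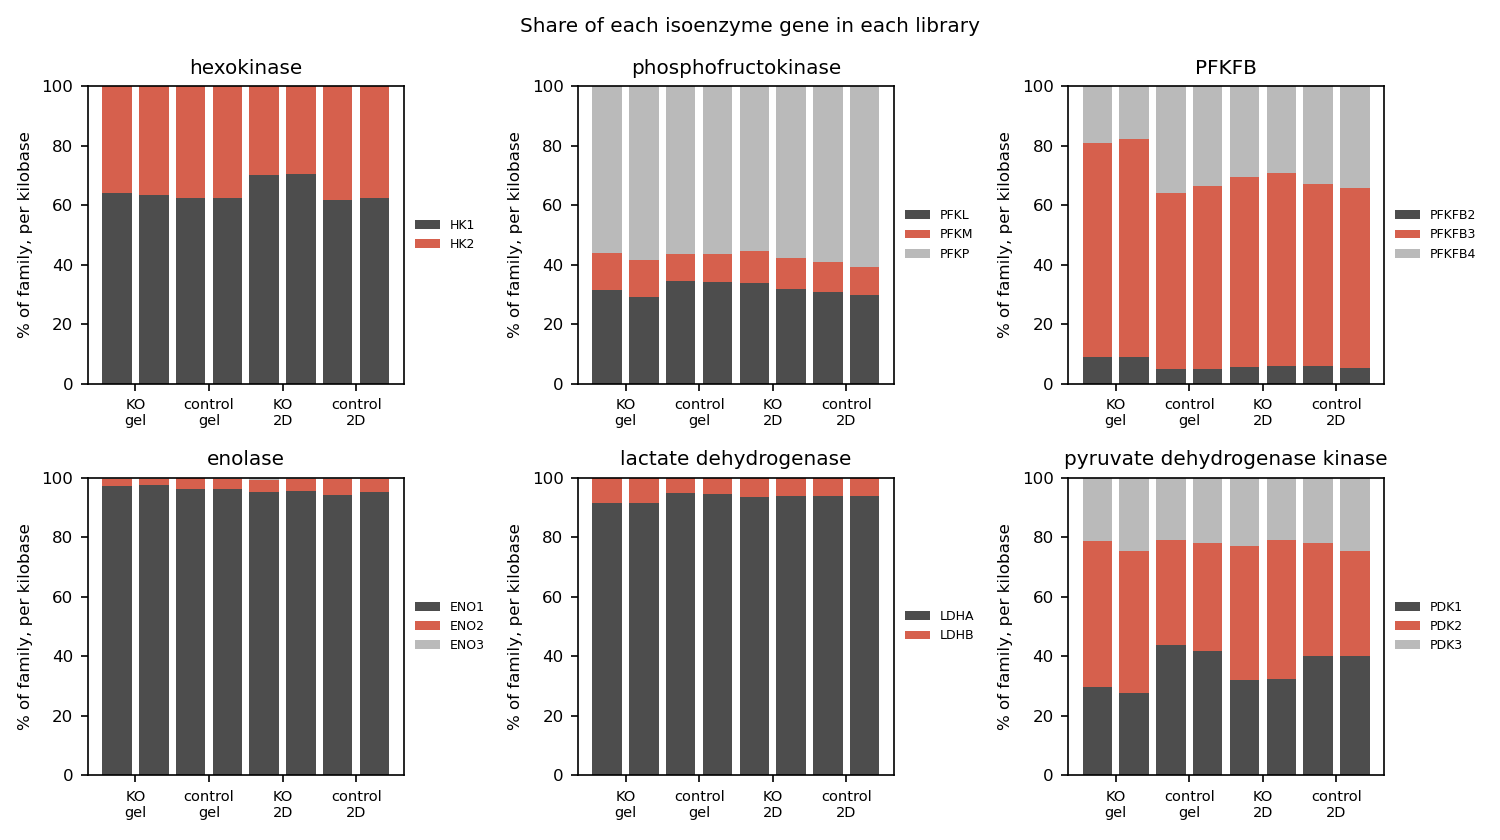
Stacked percent of each enzyme family, per kilobase of transcript, taken by each of its genes in the 8 libraries, with the 4 groups along the horizontal axis and 2 bars each. The PFKFB4 and PDK1 segments are smallest in the knockout gels, at 18.5% and 28.5%, and the HK1 segment is tallest in the knockout monolayers, at 70.3%.

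A wider list of 51 genes of carbohydrate metabolism, with 36 tested, was set beside the 34. In gels 7 of the 36 were higher in knockout cells and 11 lower, against 11.5% higher and 12.4% lower among all tested genes, and the median log2 fold change of the 36 was 0.01. H6PD, which runs the first pentose phosphate steps inside the endoplasmic reticulum, had 88.2 and 87.3 CPM in knockout gels, against 180 and 167 CPM in control gels (log2 -0.98). SLC16A3, the lactate exporter MCT4, had 457 and 461 CPM in knockout gels and 660 and 660 CPM in control gels (log2 -0.53), and the glycogen branching enzyme GBE1 fell by 0.71. Among those higher in knockout gels were PRPS1, which turns ribose 5-phosphate into the precursor of nucleotides, at 0.30, the transporter SLC2A8 at 0.64 and the mitochondrial glycerol phosphate dehydrogenase GPD2 at 0.25.

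In monolayers 8 of the 36 were lower and 1 higher, against 9.6% each way among all tested genes. H6PD (log2 -0.54), the gluconeogenic phosphatase FBP1 (-0.71) and the glycogen phosphorylase PYGL (-0.36) had the smallest adjusted p among the lower ones, and BSG, the chaperone of lactate transporters, was higher by 0.15. The interaction was negative for 7 of the 36 and positive for 0 in edgeR, against 3.94% and 2.67% of all tested genes, and DESeq2 called 6 negative and 1 positive. At an unadjusted p under 0.05, 8 were negative and 5 positive. Among all 15568 tested genes, 1694 were negative and 1331 positive at that level, and DESeq2 called 364 negative and 314 positive. The negative ones were led by SLC16A3 at -0.51, pyruvate carboxylase PC at -0.48 and H6PD at -0.44. Of 12 hypoxia-responsive genes outside the route, 10 were lower and 1 higher in knockout gels, against 12.4% and 11.5% of all tested genes. In knockout monolayers 5 were lower and 1 higher, against 9.6% each way. Their median log2 fold change was -0.95 in gels and -0.26 in monolayers, against -0.0011 and 0.01 for all tested genes. These 12 genes were chosen with earlier results of these data known. CA9, a hypoxia-induced carbonic anhydrase with the largest fall of the 12 in gels, had 3.56 and 3.67 CPM in knockout gels, against 45.6 and 40.6 CPM in control gels. The 1 higher in knockout gels was ADM (log2 0.40). VEGFA did not pass in gels (log2 0.02) and was the 1 higher in knockout monolayers (log2 0.56).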

How the data were processed

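The authors deposited raw read counts, 1 row for each gene symbol, and these were used unchanged. The submitters' processing notes name FastQC 0.11.9, the aligner STAR 2.7.9a with the hg38 build, featureCounts for counting, and R 4.1.1. The sources used here give neither the annotation nor the strand setting, so counts of overlapping genes are uncertain: 22 of the 34 genes share exonic bases with another gene, 7 of them on the same strand. Pseudogenes named after 16 of the genes, 118 in all, held at most 0.644% of their parent gene's counts.

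Counts were filtered with filterByExpr (minimum count 10), TMM-scaled and modelled as 4 group means from the 8 libraries. Differences were tested with the quasi-likelihood F-test of edgeR 4.0.16 (R 4.3.3). P-values are two-sided, adjusted by Benjamini-Hochberg over 15568 genes, with a threshold of 0.05. The model had 4 residual degrees of freedom and a median of 34.3 per gene after sharing spread across genes. "Lower", "higher" and "called" refer to this test, and SE is that of the log2 fold change. The script was also tested on simulated data. Replicate libraries differed by more than counting error (chi-squared per degree of freedom 2.54 to 6.31). CPM uses TMM factors. RPKM uses the median length of GENCODE v29 coding transcripts, the source of gene coordinates, and the alternatives include DESeq2 1.42.0. Windows came from RefSeq. All 34 genes could be named, as could up to 3 of the wider list per comparison and direction, by adjusted p. The members and lists were chosen with earlier results of these data known. Whether replicate numbers pair libraries was checked: replicate differences of any pair of groups had correlations across genes of -0.063 to 0.082, and no pairing was used. That check rests on genes, which are not independent.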

Additional observations from a re-analysis of the deposited data

Results flagged for a closer look

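The knockout effect in gels differed from that in monolayers for 18 of the 34 genes by the interaction in edgeR's quasi-likelihood test, all with a larger fall or a smaller rise in gels. On the log2 scale the difference was -1.40 for ALDOC, -1.39 for PFKFB4, -0.75 for LDHA, -0.71 for PGK1, -0.68 for PDK1, -0.65 for ENO2, -0.61 for PFKL and -0.59 for ALDOA. It was -0.48 for PGM1, -0.47 for PFKFB3, -0.45 for TPI1, -0.42 for both SLC2A1 and PGAM1, and -0.37 for GPI. The smallest were -0.33 for PKM, -0.31 for GAPDH, -0.29 for ENO1 and -0.27 for HK1. The fit with only the groups compared was not run for the interaction. Of the 18 genes, 15 kept the call under each of the other alternatives. HK1, ALDOA and ENO1 lost it without at least 1 library, each among others without control monolayer replicate 1. The 2 libraries of each group are too few to look for a sample that stands apart within a group.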

How the results depend on the processing

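Of 16 alternatives, none turned the direction of a called result. In knockout against control gels 17 of 18 genes kept the call under each of them, all but GAPDH, and with 1 library left out the count was 17 to 19 and the median -0.29 to -0.24. In monolayers it was 3 to 8 higher and 3 to 8 lower, with a median of -0.032 to 0.076. Gels against monolayers gave, with 1 library left out, 2 to 4 higher and 13 to 20 lower in knockout cells and 10 to 18 higher and 1 to 4 lower in control cells, with a median of 0.069 to 0.20 in control cells. In knockout cells 2 genes were higher with scaling by totals alone, with upper-quartile factors, with a mean of at least 5 CPM, with only the groups compared in the fit and with DESeq2. Scaling by totals alone gave a median of -0.25 in knockout cells, and 11 higher, 6 lower and a median of 0.048 in control cells. The interaction gave 0 to 1 positive and 15 to 20 negative genes with 1 library left out. With the replicate number as a block, the counts higher and lower were 0 and 18 in gels and 5 and 6 in monolayers for the knockout, 4 and 20 in knockout cells and 17 and 4 in control cells for the culture, and 0 and 19 for the interaction. The block brought LDHA in monolayers to an adjusted p of 0.0416, ENO2 between control gels and control monolayers to 0.0413 and PFKP in the interaction to 0.0480. The numbers are not shown to pair the libraries. ENO3, ALDOC and PDK3 had the widest intervals of the 34 genes in gels. The cause of these shifts was not tested.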
